A study of Mus musculus with 42 samples.

Results

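The messages described here are 8 of the 14422 genes with polyadenylation site (PAS) reads in these mouse cells. They encode the chemokines Ccl2, Ccl7 and Cxcl1, the cytokines Lif and Csf1, the prostaglandin-forming enzyme Ptgs2 (COX2) and the growth factors Vegfa and Hbegf. They were chosen by name as messages known to be short-lived and rich in A and U. No measured value entered that rule, but earlier results of these data were known when they were chosen. All 8 were listed in each of the 4 RNA-seq libraries, and their PASs made up 124 of the 99725 PAS positions of the 38 3′READS libraries. 3′READS sequences the ends of poly(A)+ transcripts, so a read marks where a message ends as well as how abundant it is.

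NIH3T3 fibroblasts were left untreated (NT), given sodium arsenite at 250 µM during 1 h (AS), or allowed to recover from it for 4, 8, 12 or 24 h (RC4, RC8, RC12 and RC24). Total RNA was measured by 3′READS in 3 NT libraries, 3 AS libraries and 1 library of each recovery time, and by RNA-seq in 1 library each of AS, RC4 and the untreated cells harvested with them (NT0h and NT4h). 4-thiouridine (4sU) given for the last hour separated newly made RNA (the 4sU fraction) from pre-existing RNA (flow-through, Ft), with 1 library each of NT0h, AS, NT4h and RC4. RNA-binding protein TIA1 was immunoprecipitated from the lysate of NT and AS cells, with a part of the same lysate kept as input, in 2 libraries of each kind. C2C12 cells, labelled with the same strain as NIH3T3 (C57BL/6), were used as proliferating myoblasts (MB) and differentiated myotubes (MT), with 2 total RNA libraries of each and 1 cytoplasmic library of each for NT0h, AS, NT4h and RC4.

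The 8 proteins act between cells. CCL2 and CCL7 draw monocytes through the receptor CCR2, CXCL1 draws neutrophils through CXCR2, LIF signals through LIFR and gp130, and CSF1 keeps macrophages alive through CSF1R. PTGS2 makes the precursor of prostaglandins, VEGFA acts on endothelial cells, and HBEGF is shed from the cell surface to activate the EGF receptor. Such messages are held at low levels by fast decay. AU-rich elements, often built around the pentamer AUUUA in the 3′UTR, recruit proteins that shorten the poly(A) tail or protect the message.

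The pentamer was present in the 3′UTR of all 8 messages, from 1 copy in Ccl2 to 14 in Ptgs2. Within the 500 nt before the main PAS, 49.9% of 12199 genes carried ATTTA and 13.1% carried the overlapping 7-letter form TATTTAT, both read on the message strand. In that same window of the 8 messages, ATTTA was found in 8 of 8, from 1 copy in Hbegf to 5 in Cxcl1, Lif and Vegfa, with 3 in Ptgs2. For Ccl2 and Ccl7 the 3′UTR is shorter than the window, which therefore reached into coding sequence. It held 2 copies in Ccl2, against 1 in the 3′UTR. TATTTAT was found there in 5 of 8, with 4 copies in Cxcl1, 3 in Lif, 2 in Vegfa and 1 each in Ptgs2 and Hbegf. For 7 messages, the 30 nt of the 3′UTR with the most copies are given 5′ to 3′ in DNA letters, with ATTTA in capitals. They show how the elements differ: runs of overlapping pentamers in Cxcl1 and Ptgs2, and 1 copy in the 30 nt of Ccl2 and of Ccl7. The whole 3′UTR of Ccl7 holds 2 copies. The sequences are from the NCBIM37 (mm9) genome. They lie at chr11:81850695-81850724 (+) for Ccl2, chr11:81860744-81860773 (+) for Ccl7, chr5:91321628-91321657 (+) for Cxcl1, chr11:4172417-4172446 (+) for Lif, chr3:107544027-107544056 (-) for Csf1, chr1:151952924-151952953 (+) for Ptgs2 and chr17:46154556-46154585 (-) for Vegfa.
Ccl2: tgatgccttaattaatattaaacttATTTA
Ccl7: tggtctttaagttattaatatttttATTTA
Cxcl1: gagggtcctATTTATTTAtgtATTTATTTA
Lif: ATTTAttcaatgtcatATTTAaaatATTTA
Csf1: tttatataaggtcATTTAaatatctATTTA
Ptgs2: ccatATTTATTTATTTAtgtgaagaATTTA
Vegfa: tcttggttaatATTTAatttcaactATTTA
The 3′UTRs up to the main PAS ranged from 275 nt in Ccl2 and 435 nt in Ccl7 to 2445 nt in Ptgs2 and 3180 nt in Lif. Over the whole 3′UTR, a longer stretch than the window for 6 of the 8, TATTTAT occurred 6 times in Cxcl1 and of Ptgs2, 5 times in Lif, 3 times in Vegfa, 2 times in Hbegf and 1 time in Csf1, and was not found in Ccl2 or Ccl7. These matches describe letters only, not binding.

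The 3′READS libraries held 1048335 to 6974664 reads, of which 87.63 to 94.78% fell in genes, and the RNA-seq libraries 17137579 to 25194062. The files list only PASs and genes with at least 5 reads in a library. A message without an entry is therefore called not listed, which does not mean absent. Lif was listed in 22 and Cxcl1 in 29 of the 38 3′READS libraries, Ccl2 in 36 and the other 5 in all. NIH3T3 libraries had reads for 8 of 8 fibroblast markers and no listed read for the myoblast or epithelial markers, and the summed level of myotube markers was 11238 to 22196 RPM (reads scaled to a library of 1000000 reads) in MT against 76.7 to 260 RPM in MB. Fibroblast markers were not particular to NIH3T3, with a median sum of 3942 RPM there, 8372 RPM in MB and 10275 RPM in MT. Myoblast markers summed to 67.2 to 162 RPM in MB and to 158 to 683 RPM in MT. Of the macrophage markers, which matter here because macrophages also make several of these signals, Ptprc and Emr1 were not listed in any library, and the sum over the list was at most 58.9 RPM. Before any result, replicate 4 of the NT and AS total RNA must be set apart: it belongs to the recovery time course and held far more Ccl7 and Cxcl1 than replicates 1 and 2 in both conditions. In bulk RNA, more cells expressing a message and more message per cell cannot be told apart.

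After 1 h of arsenite, Hbegf was the only one of the 8 whose AS total RNA libraries were all above all NT libraries, and Vegfa was higher in AS in each of the 3 same-numbered pairs while its groups overlapped. Hbegf stood at 23.0, 20.1 and 18.1 RPM in NT replicates 1, 2 and 4 and at 56.6, 50.8 and 32.2 RPM in AS. Its mean was 20.4 ± 2.48 RPM in NT and 46.5 ± 12.7 RPM in AS (SD, n = 3). Groups without overlap made up 0.988% of the 10320 genes tested in this direction and 0.862% in the other, where no message was found. Vegfa stood at 24.1, 2.5 and 40.9 RPM in NT and at 54.2, 7.7 and 64.5 RPM in AS, so the differences within pairs (1.14, 1.30 and 0.65 on the log2 scale) were narrower than those between replicates. All 3 pairs were higher in 12.3% of genes and lower in 12.8%.

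None of the 8 passed edgeR's quasi-likelihood test across all genes (0.0% of 10320 genes called in either direction; 21 genes at an unadjusted p under 0.05, and 0 calls with DESeq2). The log2 fold change of Hbegf was 1.21 (SE 0.44; adjusted p = 1 with edgeR) and that of Vegfa 0.97 (SE 1.03; adjusted p = 1 with edgeR). With the replicate number as a block, which the pairing of these libraries allows, 10 genes were called higher and none lower. No member was among them, with adjusted p of 0.101 for Hbegf and 0.211 for Vegfa in edgeR.

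The chemokines varied more between replicates than between conditions. Ccl2 was at 140, 291 and 544 RPM in NT replicates 1, 2 and 4 and at 98.8, 197 and 614 RPM in AS. Ccl7 was at 12.7, 4.6 and 271 RPM in NT and at 10.3, 6.9 and 313 RPM in AS, and Cxcl1 at 6.4, 4.9 and 67.6 RPM in NT and at 3.4, 3.4 and 104 RPM in AS. For all 3 the highest library of either group was replicate 4, and AS was above NT in 1, 2 and 1 of the 3 pairs, respectively. Without replicate 4 of both groups, a choice made with the data in view, the log2 fold change was -0.58 for Ccl2 (SE 0.65), 0.03 for Ccl7 (SE 0.65) and -0.72 for Cxcl1 (SE 0.64). That fit called 0 genes too, with 32 at an unadjusted p under 0.05.

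Csf1 and Ptgs2 overlapped as well. Csf1 was at 528, 148 and 198 RPM in NT and at 655, 228 and 177 RPM in AS, and Ptgs2 at 288, 37.8 and 417 RPM in NT and at 184, 53.2 and 531 RPM in AS. Each was higher in AS in 2 of 3 pairs. Lif reached 4.7 RPM in NT and 5.1 RPM in AS at most and was not listed in replicate 1 of either group. The plot of the total RNA libraries shows the 3 pairs for each message.

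**Figure D1:**
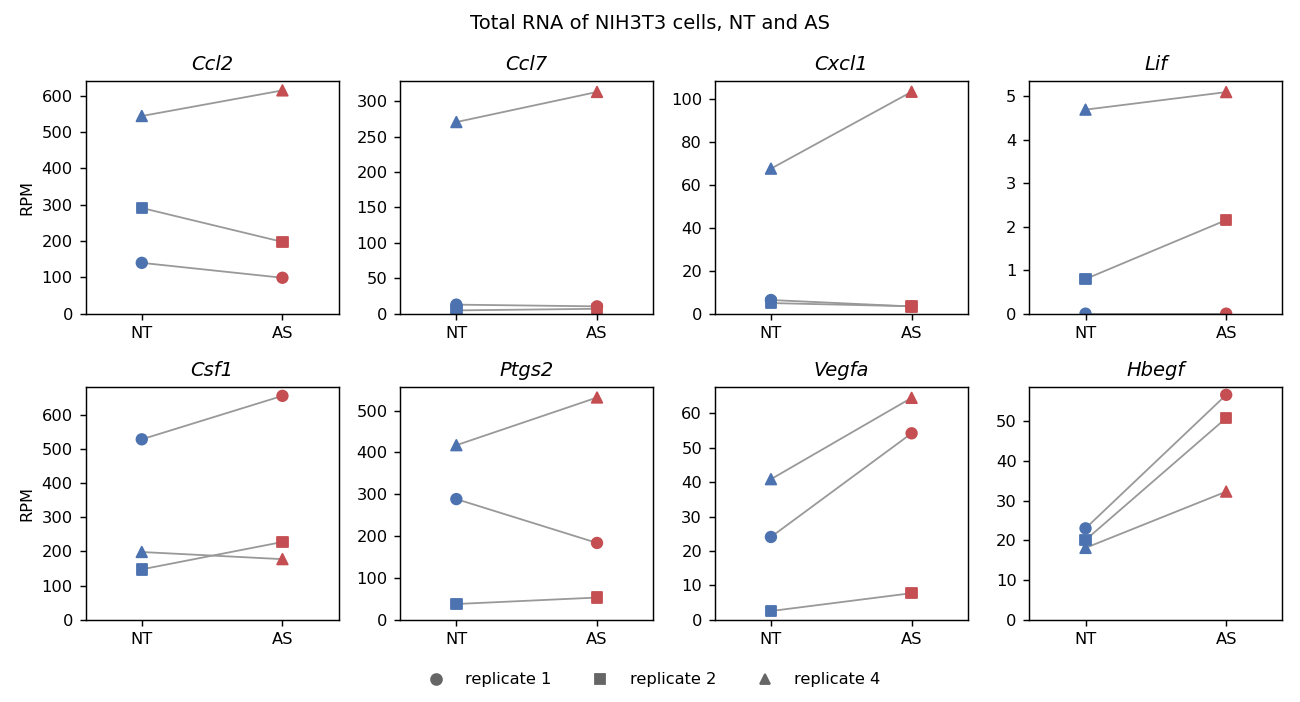
Level of the 8 messages in total RNA of NIH3T3 cells in RPM (linear axes from 0, 1 panel per message), with a point for each NT and AS library and lines joining libraries of the same replicate number; a message without an entry is drawn at 0. The Hbegf points of AS (32.2 to 56.6 RPM) lie above those of NT (18.1 to 23.0 RPM), and the replicate 4 points of Ccl7 and Cxcl1 lie far above the others in both groups.

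RNA-seq of a single replicate gave the same question a deeper count, with reads counted over coding sequence. Here 2 of the 8 messages were at least 2-fold higher in AS (3.77% of genes) and none at least 2-fold lower (1.66% of genes). Hbegf went from 141 to 919 reads, a normalized level 5.57-fold higher in AS, and Ptgs2 from 3360 to 8454 reads, 2.16-fold higher. The other 6 lay between -0.35 (Ccl7) and 0.35 (Cxcl1) on the log2 scale of normalized counts. For comparison, the untreated libraries NT0h and NT4h differed by at most 0.46 in any of the 8 (Vegfa), and by 2-fold in either direction in 2.51% of genes. With 1 library per condition there is no test of these differences.

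After 4 h of recovery the 8 messages split into groups of 4 in RNA-seq. The 3 chemokines and Lif were all lower in RC4 than in NT4h by at least 2-fold, and Csf1, Ptgs2, Vegfa and Hbegf were all higher by at least 2-fold. Across genes, 16.0% were at least 2-fold higher and 14.5% at least 2-fold lower. Ccl2 went from 7764 to 345 reads (18.9-fold lower after normalization), Cxcl1 from 1036 to 63 (13.7-fold lower), Ccl7 from 2398 to 394 (5.11-fold lower) and Lif from 207 to 41 (4.19-fold lower). Ptgs2 went from 2769 to 26391 reads (11.3-fold higher), Hbegf from 165 to 1312 (9.40-fold higher), Csf1 from 3772 to 11441 (3.60-fold higher) and Vegfa from 3419 to 10018 (3.48-fold higher). Each of these differences was larger than the gap between the untreated libraries for the same message. Of the macrophage markers, Cd68 was at 102 reads in NT4h and 620 in RC4, Csf1r at 35 and 96, and Cd14 at 43 and 87, while Ptprc, Emr1 and Lyz2 were not listed in either. Of the fibroblast markers, 3 of 8 were at least 2-fold lower. Their part in the result was not tested.

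The 3′READS time course, a separate replicate with 1 library per time point, followed both sides of that split to 24 h. At RC4, 3 of 8 messages were at least 2-fold above NT (6.62% of genes) and 2 at least 2-fold below (13.3% of genes). Ptgs2 was at 417 RPM in NT, 531 in AS, 2184 at RC4, 708 at RC8, 474 at RC12 and 234 at RC24. It was thus highest at RC4 (5.22-fold above NT) and lowest at RC24 (1.78-fold below NT), with a counting interval of the RC24 difference from -1.06 to -0.62 on the log2 scale. That interval and the others given with it cover counting error only.

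Hbegf and Vegfa were also highest at RC4. Hbegf was at 18.1 RPM in NT, 32.2 in AS, 98.1 at RC4, 53.5 at RC8, 53.2 at RC12 and 22.9 at RC24, and Vegfa at 40.9, 64.5, 117, 80.5, 59.4 and 46.7 RPM. Hbegf was the only message still at least 2-fold above NT at RC8 (6.02% of genes) and at RC12 (2.98% of genes), and its RC8 and RC12 levels rested on 85 and 94 reads and did not differ beyond counting error. Csf1 was at 198 RPM in NT, 177 in AS, 308 at RC4, 197 at RC8, 178 at RC12 and 192 at RC24. Its RC4 level was the only one whose counting interval against NT excluded 0.

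The chemokines were lowest at RC4 or RC8 and were back at or above their NT level at RC24. Ccl2 was at 544 RPM in NT, 614 in AS, 294 at RC4, 245 at RC8, 346 at RC12 and 677 at RC24. Ccl7, at 271, 313, 127, 121, 147 and 341 RPM, had the same order of time points as Ccl2, from RC8 as the lowest to RC24 as the highest. Cxcl1 was at 67.6, 104, 13.8, 27.1, 26.0 and 70.6 RPM. At RC8 all 3 were at least 2-fold below NT (3.25% of genes), and at RC12 only Cxcl1 was (2.59% of genes). Lif stayed between 4.5 and 11.4 RPM, on 6 to 14 reads, and its counting interval against NT included 0 at each time. It was nevertheless the one message counted as 2-fold higher at RC24 (2.69% of genes; 1.79% were lower, none of them a member), and in AS no message of this replicate passed 2-fold in either direction (2.27% of genes higher and 4.23% lower).

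These differences were taken against the NT library of the same replicate. Against the mean of all 3 NT libraries, Ccl7 at RC4 and RC8 and Cxcl1 at RC8 came out above NT (0.40, 0.33 and 0.04 on the log2 scale), as replicates 1 and 2 enter that mean with their low levels. Ccl2 at RC4 was 1.85-fold below NT in this time course and 18.9-fold below it in RNA-seq. The 2 measurements are of different replicates and count different parts of the message.

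**Figure D2:**
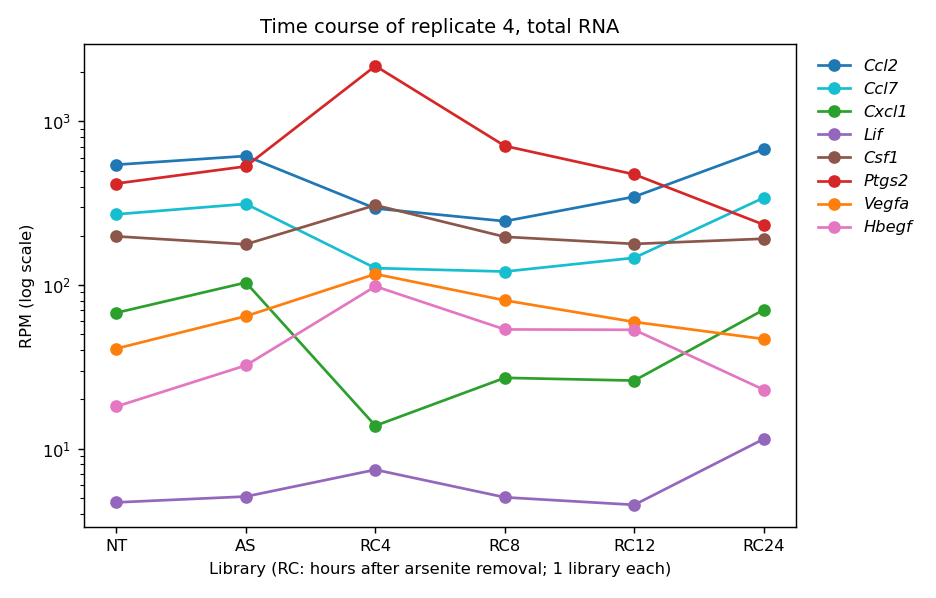
Level of the 8 messages in the time-course replicate of NIH3T3 total RNA (RPM, log axis) in NT, AS and at 4, 8, 12 and 24 h of recovery, with 1 library per point joined by lines. Ptgs2, Hbegf and Vegfa peak at RC4, where Ptgs2 reaches 2184 RPM, and Cxcl1 has its lowest level there at 13.8 RPM.

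The 4sU and Ft fractions separated the same conditions into newly made and pre-existing RNA. RPM is a share of each fraction, so a level compares libraries of 1 fraction only. In AS, no message was at least 2-fold higher in newly made RNA (3.73% of genes) and 2 were at least 2-fold lower (8.14% of genes). Ccl2 was at 235 RPM in NT0h and 115 in AS, and Lif at 25.1 and 8.3 RPM. Ptgs2 was at 1748 and 2972 RPM (1.70-fold higher) and Hbegf at 134 and 190 RPM (1.42-fold higher), whereas Csf1 was at 1076 and 645 RPM, Vegfa at 175 and 94.9 RPM and Ccl7 at 234 and 130 RPM, all 1.67-fold to 1.84-fold lower. Cxcl1, at 29.4 and 31.3 RPM, was within counting error. In pre-existing RNA of AS cells, Ptgs2 (203 and 450 RPM) and Hbegf (28.6 and 61.3 RPM) were at least 2-fold higher (4.08% of genes). Lif was the one lower (2.88% of genes), on 17 and 6 reads with a counting interval that included 0.

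At RC4, newly made Ptgs2 was at 7933 RPM against 1628 RPM in NT4h, and it was the only message at least 2-fold higher in that fraction (7.37% of genes). Hbegf was at 92.7 and 176 RPM, Vegfa at 212 and 301 RPM and Csf1 at 1472 and 2070 RPM in NT4h and RC4, or 1.88-fold, 1.42-fold and 1.41-fold higher. Newly made Ccl2 (278 and 56.0 RPM), Ccl7 (238 and 76.7 RPM) and Lif (31.8 and 8.6 RPM) were lower by 4.89-fold, 3.07-fold and 3.43-fold (19.2% of genes were at least 2-fold lower). Cxcl1 was at 24.2 and 20.3 RPM, a difference within counting error. This stood apart from its RNA-seq value, which rested on 1036 and 63 reads of another replicate.

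Pre-existing RNA at RC4 gave larger differences for the messages that were higher. Ptgs2 was at 252 RPM in NT4h and 2699 RPM in RC4 (10.7-fold higher), Hbegf at 26.8 and 115 RPM (4.16-fold) and Vegfa at 38.6 and 78.4 RPM (2.00-fold), which made 3 of 7 listed messages (7.25% of genes). Ccl2 (219 and 70.6 RPM) and Ccl7 (121 and 54.3 RPM) were lower by 3.08-fold and 2.20-fold (22.7% of genes), Csf1 was at 521 and 1007 RPM and Cxcl1 at 11.2 and 13.3 RPM. Lif was listed at 6.0 RPM in NT4h and not listed in RC4. The median of all genes was itself shifted at RC4, by -0.29 in 4sU and -0.39 in Ft on the log2 scale, and normalization by TMM brought it to -0.02 and 0.02. Between the untreated libraries NT0h and NT4h, no message differed by 2-fold in 4sU (3.49% of genes) or in Ft (3.62% of genes).

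**Figure D3:**
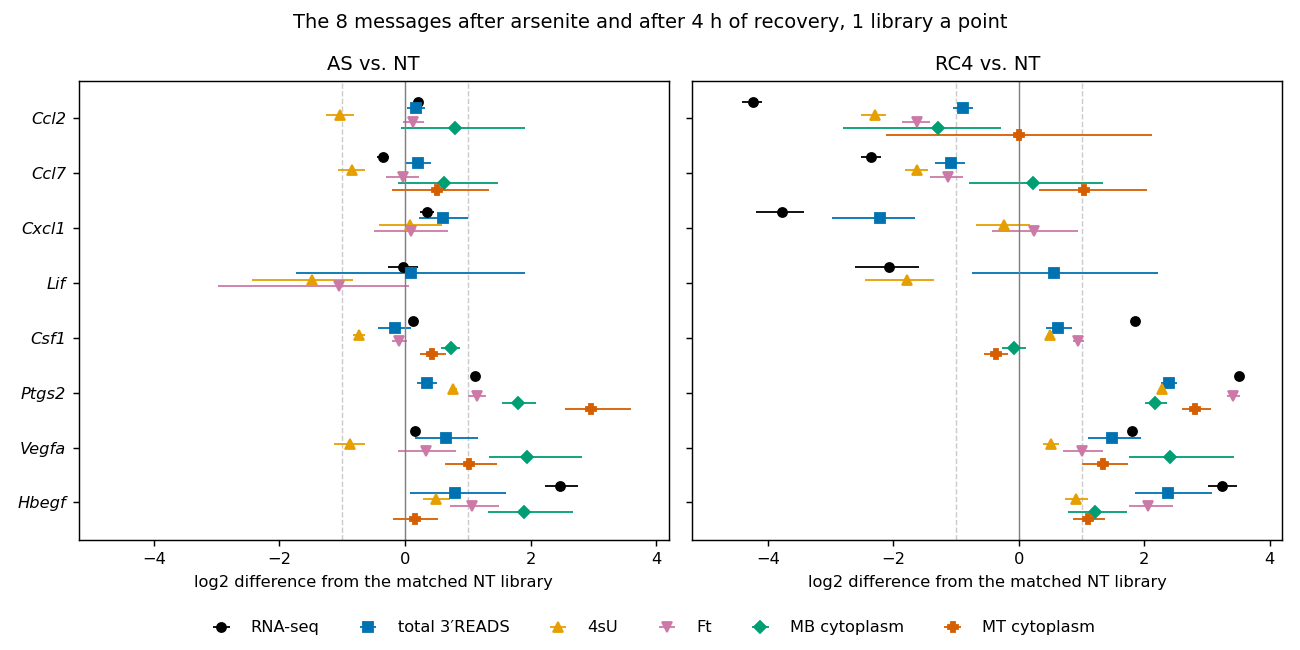
log2 difference from the matching untreated library for the 8 messages in RNA-seq, total RNA, the 4sU and Ft fractions and C2C12 cytoplasm, in AS and at RC4, with 1 library per condition, bars for the 95% counting interval and dashed lines at 2-fold. Ptgs2 lies above 2 in all 6 RC4 comparisons (2.17 to 3.50), and Ccl2 is lowest in RNA-seq at -4.24.

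The ratio of pre-existing to newly made RNA, log2(Ft/4sU) adjusted for the number of Us, is a measure of relative stability. In untreated cells all 8 messages were below the median of all genes at both harvests, with or without that adjustment. In NT0h the lowest were Ptgs2 (-2.31, percentile 1.5 of 9498 genes), Vegfa (-2.27, percentile 1.6), Hbegf (-1.99, percentile 2.8) and Ccl7 (-1.88, percentile 3.6), followed by Lif (-1.52), Cxcl1 (-1.09), Ccl2 (-0.84) and Csf1 (-0.72). The order depended on the adjustment, without which Ccl7 was at percentile 16.0 and Lif at percentile 6.2. In NT4h, Vegfa and Ptgs2 were again the lowest (-1.95 and -1.83), and Ccl2 and Csf1 (-0.90 and -0.93) again the highest, while the order of the other 4 changed between harvests. Differences between neighbours in this order were not tested, with 1 pair of libraries per harvest.

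In AS, 7 of 8 remained below the median, and Ccl2 was at 0.15 (percentile 54.4 of 9398 genes). Ptgs2 stayed low at -2.09 (percentile 1.8). At RC4, 7 of 7 listed messages were below the median, but Ptgs2 was at -0.65 (percentile 23.3 of 9575 genes) and Hbegf at -0.30 (percentile 36.2), against -1.83 and -1.53 in NT4h. Without the adjustment for Us, 6 of 7 were below it at RC4. Ccl2 was then at percentile 71.9 at RC4 and at percentile 81.7 in AS. Vegfa was still the lowest at -1.39 (percentile 7.2). The ratio reads as stability only where synthesis and decay are steady, and at RC4 the Ft fraction also holds RNA made during the first 3 h after the stress. The value of Ptgs2 depends on where its message ends. Counting only PASs within the annotated gene gave -1.93 in NT0h, -1.26 in NT4h, -1.13 in AS and -0.23 at RC4, since its main PAS lies 217 nt past the annotated end.

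**Figure D4:**
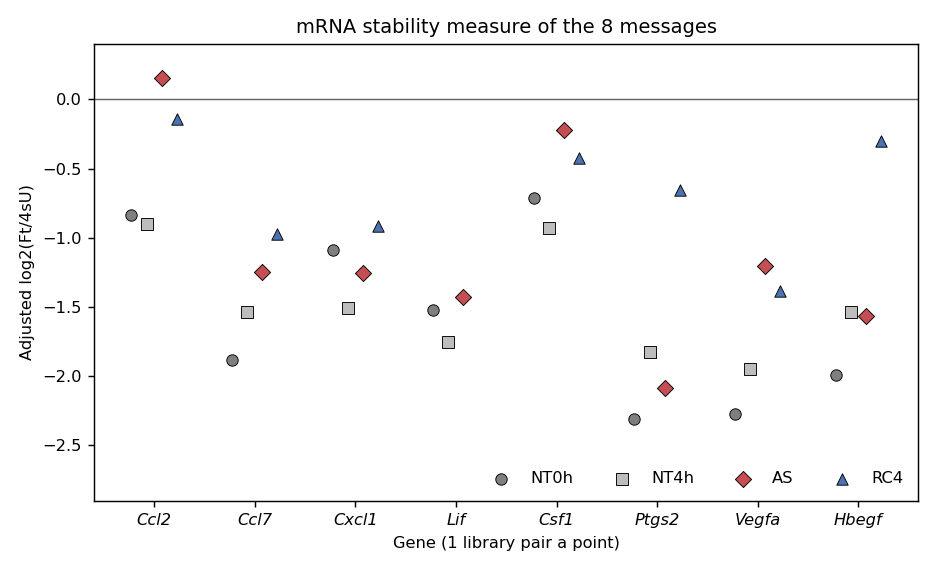
log2(Ft/4sU) adjusted for the number of Us for the 8 messages in NT0h, NT4h, AS and RC4, 1 pair of libraries per point, with 0 as the fitted value of a gene with that number of Us. Ptgs2 and Vegfa lie near -2.3 in NT0h, and Hbegf and Ptgs2 reach -0.30 and -0.65 at RC4.

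TIA1, a protein of stress granules that binds U-rich sequence, was compared with input as log2(TIA1/Input). Of the 7 messages listed in all 8 libraries, Ptgs2 and Vegfa were above input in all 4 pairs and Cxcl1 was below input in all 4. The share of all genes with 1 direction in all 4 pairs was not counted. A ratio of 0 is not that of a typical gene. With library totals only, the median log2 fold change of 10694 genes was 0.25 in NT and 0.31 in AS. Ptgs2 was at 1.13 and 1.79 in NT replicates 1 and 2 and at 1.60 and 1.27 in AS, from 50.4 and 104 RPM in TIA1 against 22.5 and 29.3 RPM in input for NT, and 195 and 294 RPM against 63.4 and 122 RPM for AS. Vegfa was at 1.85 and 1.64 in NT and at 1.33 and 1.53 in AS, though its input held only 3.0 and 4.0 RPM in NT and 3.0 and 11.2 RPM in AS. Cxcl1 was at -2.22 and -1.22 in NT and at -2.08 and -1.32 in AS, from 1.5 to 3.7 RPM in TIA1 against 4.8 to 19.0 RPM in input.

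The other 4 of these messages were below input in at least 1 pair. Ccl2 was at -0.11 and 0.47 in NT and at 0.66 and 0.58 in AS, Ccl7 at 0.08 and 0.48 in NT and at -0.35 and 0.21 in AS, and Csf1 at -0.52 and -0.51 in NT and at 0.13 and 0.09 in AS. Hbegf, at -0.20 and 1.36 in NT and -0.14 and -0.27 in AS, differed more between its NT replicates than between conditions. Lif was listed in all 4 TIA1 libraries at 1.7 to 3.4 RPM and in 1 of 4 input libraries. In that pair, AS replicate 1, it had 5 reads in input and 13 with TIA1, a difference of 0.77, and in the other 3 pairs TIA1 was above an input without an entry, for which no fold is given. Replicates differed strongly in level for Ccl2, which was at 2213 and 536 RPM in NT input and at 1635 and 644 RPM in AS input.

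With edgeR and no block, none of the 8 was called against input in NT (1.66% of 10694 genes higher and 1.59% lower) or in AS (0.271% higher and 0.944% lower). Of these tests, Ptgs2 had an unadjusted p of 0.0215 in NT and 0.0474 in AS, with adjusted p of 0.164 and 0.276 in edgeR. TIA1 and input of a replicate come from the same lysate, and with the replicate as a block Ptgs2 rose over input in both conditions, by 1.34 in NT (edgeR adjusted p = 0.00986) and 1.21 in AS (edgeR adjusted p = 0.0164) on the log2 scale, beside 959 and 839 genes called higher. The enrichment did not pass a test of a difference between AS and NT in any of the 8 (0.0% of genes in either direction with edgeR, 221 at an unadjusted p under 0.05; DESeq2 called 5 genes lower and 0 higher, none of them named here). In input RNA, Ptgs2 was higher in AS by 1.73 on the log2 scale (SE 0.54; edgeR adjusted p = 1, and 0.0508 with the block), where 0.00935% of genes were called higher and 0.0% lower; DESeq2 called 16 and 1.

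The PASs within a message showed whether its short and long forms moved alike. The reads of each message came mainly from 1 PAS, and its 2 most used PASs are called pPAS (upstream) and dPAS (downstream). In Ptgs2 (chr1:151947254-151955140, +) they lie at 151954606 and 151955357, so the long form carries 751 nt more. In Ccl2 (chr11:81849073-81850955, +) they lie at 81850729 and 81850955, 226 nt apart in the 3′UTR, and in Csf1 (chr3:107543966-107563387, -) the upstream PAS at 107548511 is in an intron of the gene model, 4538 nt from the main PAS at 107543973. Cxcl1 (chr5:91320267-91322141, +) also ended past its annotation, at 91322147.

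Ptgs2 and Ccl2 used the upstream PAS more at RC4 than in the matching untreated library in all 3 NIH3T3 pairs where they could be compared. For Ptgs2 its share was 5.28% and 11.79% in the 4sU fraction, 8.71% and 19.38% in Ft and 9.98% and 15.09% in total RNA. For Ccl2 it was 6.49% and 17.99% in 4sU, 13.96% and 28.43% in Ft and 24.68% and 31.4% in total RNA. RED, the change in log2(dPAS/pPAS), was -1.26, -1.33 and -0.68 for Ptgs2 and -1.66, -1.29 and -0.48 for Ccl2, each with a counting interval below 0. In NT0h the upstream share was 6.15% in 4sU and 8.91% in Ft for Ptgs2, and 12.11% and 19.01% for Ccl2. The RC4 shares were above these as well. For Ccl2 in 4sU, however, the Wilson intervals of NT0h (9.7 to 15.02%) and RC4 (13.64 to 23.36%) overlapped. The NT total RNA replicates themselves ranged from 5.54% to 36.25% for Ptgs2 and from 15.84% to 25.44% for Ccl2, so the RC4 share in total RNA lay within the NT range for Ptgs2 and above it for Ccl2. Both a message that was far higher at RC4 and one that was lower thus had a larger share of short forms than the untreated library of the same replicate.

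In AS the directions were mixed. In newly made RNA the upstream share of Ptgs2 was lower in AS (6.15% and 3.69%, RED 0.77, interval 0.50 to 1.05), and that of Ccl2 (12.11% and 19.34%, RED -0.80) and Csf1 (2.21% and 4.71%, RED -1.13) was higher, with intervals below 0. In Ft of AS the intervals of all 3 included 0, with RED of 0.17, -0.21 and 0.08.

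At RC4, the share of the intronic PAS of Csf1 was 1.88% and 4.30% in 4sU and 12.97% and 19.61% in Ft, while in total RNA (32.32% and 34.77%) the interval of RED, from -0.62 to 0.30, included 0. In C2C12 cytoplasm the order for Ptgs2 against NT4h was the other way. There its upstream share was 8.20% in NT4h and 4.53% at RC4 in MB, and 3.59% (on 6 upstream reads) and 1.35% in MT. In NT0h no upstream read of Ptgs2 was listed, beside 127 downstream reads in MB and 34 in MT. The order in C2C12 thus depended on the untreated library used. In total RNA after 1 h of arsenite, with 3 NT and 3 AS libraries, none of the 7 messages with an isoform pair passed a test of its dPAS share (exact permutation test, two-sided, all adjusted p = 1; 3 against 3 cannot go below 0.1 before adjustment). The largest mean difference was in Vegfa, -12.44 percentage points (p = 0.3, exact permutation test). It rested on NT replicates 2 and 4, where no upstream read of Vegfa was listed beside 16 and 47 downstream reads. In replicate 1, with both forms listed in NT and AS, the dPAS share went the other way, from 64.71% to 73.01%.

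In TIA1 libraries the upstream forms of Ccl2 and Csf1 took a smaller share than in input, while other messages were mixed. For Ccl2 the share was lower in 4 of 4 pairs, at 10.62% in input and 4.55% with TIA1 in NT replicate 1, 10.12% and 4.95% in NT replicate 2, 11.77% and 3.25% in AS replicate 1 and 7.95% and 5.28% in AS replicate 2. For Csf1 it was also lower in 4 of 4, at 2.48% to 4.78% in input and 0.28% to 1.96% with TIA1. For Ptgs2 it was lower in 3 of 4 pairs, the exception being NT replicate 1 with 9.33% in input, on 7 upstream reads, and 25.38% with TIA1. For Ccl7 it was higher with TIA1 in NT replicate 1 (7.12% and 8.59%) and AS replicate 2 (11.76% and 17.35%), lower in NT replicate 2 (11.76% and 3.42%) and close in AS replicate 1 (7.78% and 7.74%). Vegfa had no listed upstream read in any input library, on 10 to 22 downstream reads, but 18 of 89 reads with TIA1 in NT replicate 2 and 17 of 122 in AS replicate 2. These shares were compared by counting intervals only, and the groups of 2 replicates were not tested.

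**Figure D5:**
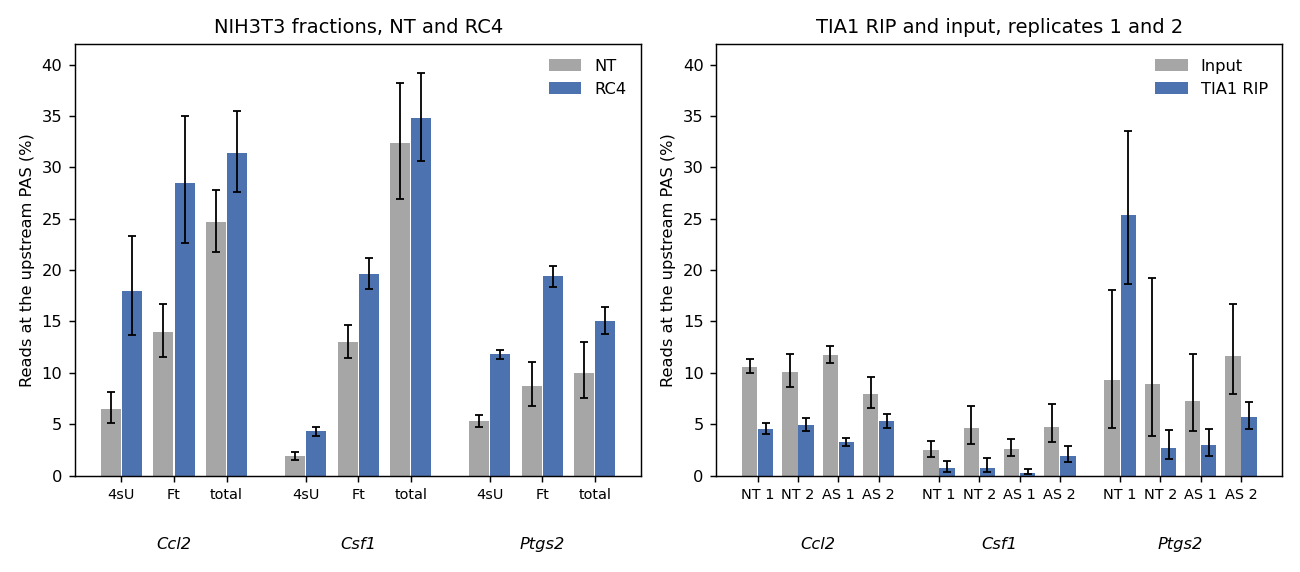
Share of pPAS reads among pPAS and dPAS reads (percent) for Ccl2, Csf1 and Ptgs2, in untreated and RC4 libraries of NIH3T3 fractions and in input and TIA1 libraries, with a bar per library and 95% Wilson intervals. Bars start at 0. The RC4 shares of Ptgs2 and Ccl2 lie above the untreated ones in all 3 RNA pools (19.38% and 28.43% in Ft), and the TIA1 shares of Ccl2 and Csf1 lie below input in all 4 pairs.

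C2C12 cells expressed the same signals at other levels. Between MT and MB, 6 of the 7 messages tested passed the edgeR test (31.4% of 11154 genes were called higher in MT and 27.4% lower). Ccl2 fell from 32.7 and 28.1 RPM in MB to 1.6 and 1.8 RPM in MT, by 3.98 on the log2 scale (SE 0.30; edgeR adjusted p = 1.65e-06). Ccl7 fell from 33.3 and 33.3 RPM to 9.9 and 14.0 RPM (edgeR adjusted p = 0.000339) and Csf1 from 517 and 605 RPM to 265 and 264 RPM (edgeR adjusted p = 2.46e-05). Vegfa rose from 25.3 and 46.1 RPM to 117 and 156 RPM, by 2.07 on the log2 scale (SE 0.23; edgeR adjusted p = 2.63e-05).

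Ptgs2 rose less, from 47.5 and 55.5 RPM to 68.2 and 67.0 RPM (0.55 on the log2 scale, edgeR adjusted p = 0.00494), and this call was lost with DESeq2 (adjusted p = 0.0525). Cxcl1 fell from 4.6 and 7.6 RPM in MB to 2.0 RPM in 1 MT library and no entry in the other (edgeR adjusted p = 0.025), a call that was lost with DESeq2 (adjusted p = 0.0957) and without MT replicate 2 or MB replicate 3 (edgeR adjusted p = 0.0948 and 0.17). Hbegf, at 44.4 and 39.7 RPM in MB and 37.3 and 31.6 RPM in MT, did not pass (edgeR adjusted p = 0.521), and Lif was not listed in these 4 libraries. Thus 2 of the messages rose and 4 fell in total RNA. For Ptgs2 the untreated cytoplasmic libraries, 1 per state and harvest, ran the other way, at 83.6 and 184 RPM in MB and 14.6 and 61.1 RPM in MT.

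In C2C12 cytoplasm, arsenite went with higher Ptgs2 and Vegfa in both states. In MB, 3 of 6 listed messages were at least 2-fold higher in AS (4.17% of genes) and 0 lower (2.1%): Ptgs2 at 83.6 and 294 RPM, Vegfa at 11.5 and 47.3 RPM and Hbegf at 13.9 and 54.7 RPM in NT0h and AS. In MT, 2 of 5 were (4.57% of genes; 0 lower against 3.43%), Ptgs2 at 14.6 and 121 RPM and Vegfa at 29.2 and 60.2 RPM, while Hbegf was at 48.0 and 54.1 RPM. The untreated libraries differed widely for Ptgs2, which was at 184 RPM in MB and 61.1 RPM in MT in NT4h, above NT0h by 1.13 and 2.00 on the log2 scale. Hbegf in MB NT4h, at 29.5 RPM, was above it by 1.03, and these were the only listed messages past 2-fold between untreated C2C12 libraries (9.17% of genes in MB and 3.42% in MT).

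At RC4, Ptgs2 was at 833 RPM in MB and 434 RPM in MT, above both untreated libraries of each state. Vegfa was at 50.7 and 80.4 RPM and Hbegf at 70.0 and 152 RPM, also above both. This made 3 of 6 listed messages at least 2-fold higher in MB (5.77% of genes) and, with Ccl7 on 18 and 40 reads, 4 of 6 in MT (5.52% of genes). Ccl2 was the only one at least 2-fold lower, in MB on 20 and 9 reads (19.6% of genes), and none was lower in MT (9.83% of genes). Csf1 was at 231 and 219 RPM in NT4h and RC4 of MB and at 186 and 145 RPM in MT. The median of all genes was itself at -0.34 in MB and -0.14 in MT on the log2 scale. In NIH3T3, Csf1 was 3.60-fold higher in RNA-seq, 1.55-fold in total RNA by 3′READS and 1.41-fold in 4sU. RNA fraction, assay and normalization differ between these values as well as cell line, and a contrast between cell lines was not tested.

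Over the 6 comparisons of RC4 with NT (RNA-seq, total RNA, 4sU, Ft, MB and MT cytoplasm, of which 4sU and Ft share cells), Ptgs2 was above NT in 6 of 6, between 2.17 and 3.50 on the log2 scale. Vegfa and Hbegf were above NT in 6 of 6 as well, from 0.51 to 2.41 and from 0.91 to 3.23. Ccl2 was below NT in 5 of 6 and Ccl7 in 4 of 6, from -4.24 to 0.00 and from -2.35 to 1.04. Csf1 was above NT in 4 of 6 and below it in 2, from -0.36 to 1.85. Where listed in both libraries, Cxcl1 was below NT in 3 of 4 (-3.77 to 0.24) and Lif in 2 of 3 (-2.07 to 0.57). The share of all genes with the same counts of directions was not determined.

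Genes of the same pathways were counted from fixed lists. In total RNA of AS against NT, edgeR called no gene of any list, as it called none of all genes. At RC4 in RNA-seq, where 16.0% of all genes were at least 2-fold higher and 14.5% lower, 4 of 6 listed other chemokines were at least 2-fold lower and 1 was higher (median -2.08, median of all genes 0.01), among them Cxcl5, a neutrophil chemokine, from 2184 to 43 reads, and Ccl9 from 1299 to 111. Of 13 listed NF-kB targets and feedback genes, 10 were at least 2-fold lower and 1 was higher (median -1.49), including Nfkbia, the inhibitor of NF-kB, from 1655 to 175 reads, and the adhesion molecule Vcam1 from 3734 to 384. NF-kB is a known activator of Ccl2, Ccl7 and Cxcl1 as well as of Ptgs2. The genes named from these lists were chosen after their values were seen. The same NF-kB list had 8 of 13 lower in 4sU (median -1.44, against 19.2% of all genes and a median of -0.29), 7 of 11 lower in Ft (median -1.51, against 22.7% and -0.39) and 3 of 10 lower in the total RNA time course (median -0.42, against 13.3% and -0.24). The chemokine list had 4 of 8 lower in 4sU (median -1.29) and 4 of 6 in Ft (median -1.11). In the total RNA time course 1 of 5 chemokines was lower, with a median (-0.26) close to that of all genes. Cxcl5 was 1.47-fold lower in 4sU and 9.15-fold lower in that total RNA, where Ccl9 was at 6 and 7 reads.

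Other secreted signals went both ways at RC4. In RNA-seq, of 13 other cytokines, 6 were at least 2-fold higher and 1 lower (median 0.98), with Il11, which signals through gp130 as Lif does, from 26 to 443 reads and Kitl, the ligand of KIT, from 736 to 4774. In Ft the cytokine list had 6 of 13 higher and 1 lower, in 4sU 6 of 17 higher and 4 lower, and in total RNA 4 of 10 higher and 0 lower (all genes: 7.25%, 7.37% and 6.62% higher). Of 20 other growth factors in RNA-seq, 8 were higher and 2 lower (median 0.43), with Ereg, another ligand of the EGF receptor, from 2316 to 10039 reads, and the fibroblast growth factor Fgf7 lower, from 7207 to 1348. In the other RNA pools this list had no common direction, with 4 of 18 higher and 6 lower in 4sU (median -0.16), 3 of 16 higher and 4 lower in Ft (median -0.16) and 6 of 15 higher and 5 lower in total RNA (median -0.53). Of 9 receptors of the 8 signals, 2 were higher, Csf1r and the prostaglandin receptor Ptger4, and 2 lower, Flt1 and Nrp2, both receptors of VEGF (median -0.33).

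Around Ptgs2, 4 of 11 genes of prostaglandin synthesis and breakdown were at least 2-fold higher and 1 lower in RNA-seq (median 0.04), against 16.0% and 14.5% of all genes. The 4 higher were Ptges3 (4158 to 7312 reads), Ptgr1 (1746 to 4971), Abcc4 (241 to 563) and Tbxas1 (8 to 19). The one lower was Ptges, which makes prostaglandin E2 from the product of PTGS2, from 593 to 145 reads, while the constitutive Ptgs1 was at 4171 and 4004 reads. Of 8 shedding proteases and their partners, 1 was higher and 2 lower, Adam12 and Rhbdf1 (median -0.70). Adam17, a sheddase of HBEGF, was at 1923 and 812 reads, 1.99-fold lower after normalization and so not counted. In the other pools Adam17 was 1.51-fold higher in 4sU, 1.79-fold lower in Ft and 1.65-fold lower in total RNA. Of 9 AU-rich element binding proteins in RNA-seq, 2 were higher, Elavl1 and Celf1, and none lower (median -0.03), a count near that of all genes. Zfp36, which promotes decay of such messages, was at 182 and 294 reads. In 4sU this list had 0 of 9 higher and 0 lower, in Ft 1 of 9 higher and 3 lower, and in total RNA 1 of 8 higher and 3 lower. Of all genes, 19.2%, 22.7% and 13.3% were at least 2-fold lower in these pools.

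Across all 38 3′READS libraries, the genes whose log2(RPM + 1) ran most like that of each message were as follows, as a description over libraries that mix 2 cell lines, fractions and treatments. Ccl2 ran most like Cxcl5 (Pearson r = 0.952), Tmem48 (0.935) and Gpc4 (0.932), and Ccl7 most like Il1rap (0.87), Rasl11a (0.864) and Cxcl1 (0.857). Ptgs2 ran most like Sox9 (0.868), Plk2 (0.865) and Smad1 (0.864), and Vegfa like Tax1bp1 (0.864), Lrp12 (0.854) and Rbfox2 (0.847). Hbegf ran most like the zinc exporter gene Slc30a1 (0.80), Obfc2a (0.784) and Dnajb9 (0.778), and Csf1 like Fnbp4 and Parp8 (both 0.803) and Elf4 (0.80). Cxcl1 and Lif were listed in under 30 libraries and were not compared.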

How the data were processed

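The 38 3′READS and 4 RNA-seq libraries were grouped by their labels. For 3′READS, the authors deposited raw read counts at each PAS, after adapter removal (cutadapt), alignment to mm9 (Bowtie2) and merging of cleavage sites at most 24 nt apart. For RNA-seq, the authors deposited raw counts per gene over coding sequence from STAR alignments. No value is below 5 reads. Tool versions are not given in the sources used here.

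PASs were assigned to genes of the NCBIM37 annotation up to 4000 nt downstream, stopping at the next gene; PASs that could belong to more than 1 gene, mitochondrial genes and the 18 to 19 RNA-seq rows per library whose symbols had become dates were left out. RPM is reads scaled to 1000000 library reads, a share of each fraction. Differences between single libraries are log2(value + 1), with RPM for 3′READS and median-ratio normalized counts for RNA-seq; at least 2-fold was counted among genes with at least 5 reads in both libraries, with exact binomial 95% intervals. Intervals cover counting error only, since reads are not independent molecules. Groups with replicates were tested with edgeR 4.0.16 (quasi-likelihood, median-ratio normalization, R 4.3.3), adjusted by Benjamini-Hochberg over all genes and called at 0.05; DESeq2 1.42.0 was an alternative. PAS shares have Wilson intervals, and RED was computed where each form had at least 5 reads in both libraries. Other steps used Python 3.11.15, pandas 2.3.3, scipy 1.17.1 and pysam 0.24.0, and the fits were tested on simulated data. The labels number the replicates but do not say that they are separate cultures, so p-values measure the spread between these libraries.

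Deviations of same-numbered NT and AS total RNA libraries from their group means correlated across genes (r = 0.819, 0.823 and 0.768), each best with its own number. For the RIP, whose TIA1 and input come from 1 lysate by the study's methods, r was 0.197 to 0.435. The block is therefore given where it changed a call. The 8 messages, the gene lists and the tests were chosen with earlier results of these data known. Named by a fixed rule were all 8 messages, list genes called in total RNA of AS against NT (none), and the 3 genes most like each message among genes with a mean of at least 5 RPM. The list genes named at RC4 fall outside that rule and were chosen after their values were seen. Alternatives were normalization, count filter, tool, gene span, replicate block, untreated reference, pseudocount and each replicate left out.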

Additional observations from a re-analysis of the deposited data

How the results depend on the processing

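Among the summary counts of each comparison, 181 values under another setting stayed within 1.5 times the reported one and 107 moved further. Among values of single messages, 930 stayed, 126 moved, 51 changed sign, 3 gained and 4 lost significance. Where no value or construction of an alternative is given with a change, the cause was not tested. The 1-library comparisons have counting error only, and low depth limits Lif and Cxcl1 most.

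Counts of messages at least 2-fold from NT shifted by 1 to 5. With the NT library of the other time, the counts in 4sU AS went from 0 to 1 higher and from 2 to 4 lower, in Ft AS from 2 to 1 higher, in Ft RC4 from 2 to 1 lower, in MB RC4 from 1 to 0 lower and in MT AS from 2 to 1 higher. With TMM, 4sU AS went from 2 to 1 lower, 4sU RC4 from 1 to 2 higher, Ft RC4 from 2 to 1 lower, MT AS from 2 to 1 higher and total RC4 from 2 to 1 lower. With PASs of the annotated gene span only, MT AS went from 2 to 1 higher, total RC4 from 2 to 1 lower, RC12 from 1 to 0 lower and RC24 from 0 to 1 lower. Against the mean of the 3 NT libraries, total AS went from 0 to 5 higher, RC4 from 2 to 0 lower, RC8 from 1 to 4 higher and from 3 to 0 lower, RC12 from 1 to 2 higher and from 1 to 0 lower, and RC24 from 1 to 5 higher. In the same setting Ccl7 changed sign at RC4 (-1.09 to 0.40) and RC8 (-1.16 to 0.33), as did Cxcl1 at RC8 (-1.29 to 0.039).

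For TIA1 against input in NT, 177 genes were called higher, and 584 with DESeq2, 294 with more than 5 reads in every library, 571 without a filter and 959 with the replicate block. Lower calls numbered 170, and 619, 302, 591 and 1062 in that order. In AS, 29 were higher, and 93 with library totals, 480 with DESeq2, 133 with more than 5 reads, 367 without a filter, 52 with the gene span and 839 with the block. Lower calls were 101, and 59 with TMM, 585, 250 and 545 with DESeq2 and both filter settings, and 934 with the block. The difference in enrichment between AS and NT had 0 calls, but 1 higher without a filter and 1 with the block, and 5 lower with DESeq2, 10 without a filter and 7 with the block. Input RNA of AS against NT had 1 higher call, and 16 with DESeq2, 20 without a filter, 0 with the gene span and 21 with the block, and 0 lower, and 1, 3 and 5 with DESeq2, no filter and the block.

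With library totals only, Ccl2 in TIA1 against input of NT went from -0.16 to 0.021, Csf1 in AS from -0.13 to 0.12 and Csf1 in input from -0.017 to 0.053. With the replicate block, total RNA of AS against NT went from 0 to 10 higher calls and Cxcl1 there from 0.51 to -0.024, Csf1 in input went to 0.026, and Ptgs2 passed the test in TIA1 against input in both conditions (1.34 and 1.21). The block changed no other call of the 8 messages. In C2C12 the same-numbered libraries share only a number (r = 0.058), and the block called 3259 genes higher and 2940 lower, against 3497 and 3061. DESeq2 gave -2.41 for Cxcl1 and 0.55 for Ptgs2 between MT and MB, neither called.

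Leaving out 1 library at a time, or replicate 4 of both groups, gave these lowest and highest values. In total RNA of AS against NT, Ccl2 ran from -1.08 to 0.41, Ccl7 from -3.37 to 3.63, Cxcl1 from -2.83 to 2.60, Lif from -0.59 to 2.26, Csf1 from -0.51 to 1.06 and Ptgs2 from -0.98 to 0.65. For TIA1 against input in NT, calls ran from 142 to 500 higher and from 232 to 508 lower, Ccl2 from -0.91 to 1.13, Ccl7 from -0.54 to 0.91, Ptgs2 from 0.72 to 1.95 and Hbegf from -0.11 to 1.06. Ptgs2 was called there without TIA1 NT replicate 1 (1.95, edgeR adjusted p = 0.0343). In AS, calls ran from 53 to 314 higher and from 113 to 524 lower, Ccl2 from -0.51 to 1.25 and Csf1 from -0.52 to 0.27. For the difference between AS and NT, calls ran from 0 to 3 higher and from 0 to 10 lower, Ccl2 from -0.74 to 1.43, Ccl7 from -1.25 to 0.19, Cxcl1 from -0.93 to 1.18, Csf1 from -0.014 to 1.08, Ptgs2 from -0.77 to 0.45 and Vegfa from -1.71 to 0.77. In input, calls ran from 6 to 15 higher and from 0 to 5 lower, Ccl2 from -1.20 to 0.97, Ccl7 from -0.92 to 0.51, Cxcl1 from -0.82 to 1.28, Csf1 from -0.44 to 0.57 and Vegfa from -0.31 to 1.56. In C2C12, Cxcl1 ran from -7.48 to -1.44 and Hbegf from -0.25 to 0.0089. A group left with 1 library was assumed to vary like the others. The count filter follows the size of the smallest group, so it was looser in these fits. For the RIP they tested 11473 to 11766 genes, against 10694 with all libraries. The ranges thus hold the effect of the filter as well as that of the library left out.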
